A study of Rattus norvegicus with 16 samples.

Results

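The 32 genes described here make, carry, store and export cholesterol, and they were chosen by pathway, not by a measured value. They are 32 of the 15168 genes that the rat microarray names. Each was read from 1 probe, the one of highest mean signal where a gene had several. By role they are 8 genes of the mevalonate steps (Acat2, Hmgcs1, Mvk, Pmvk, Mvd, Idi1, Fdps and Ggps1), 11 of the sterol branch (Fdft1, Sqle, Lss, Cyp51, Tm7sf2, Msmo1, Nsdhl, Hsd17b7, Ebp, Sc5d and Dhcr7), 4 of the SREBP2 sensing machinery (Srebf2, Scap, Insig1 and Insig2), 4 of sterol transport and storage (Stard4, Npc1, Npc2 and Soat1), and 5 of the liver X receptors (LXRs), export pumps and Mylip (Nr1h3, Nr1h2, Abca1, Abcg1 and Mylip). All 32 were well above background on all 16 arrays, so each could be followed in every animal.

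The tissue was the epididymal white fat pad of male rats aged 30 days, killed while feeding freely. HF pups (8 animals) came from dams that ate a high-fat diet of 5.24 kcal per g and drank low-fat condensed milk as vehicle through pregnancy and lactation. HFT pups (8 animals) came from dams on the same diet that received 25 mg per kg body weight of GSPE, a grape seed procyanidin extract, in that milk. After weaning on day 21 every pup ate its mother's high-fat diet, so both groups shared the diet before and after birth, and litters had been set to 10 pups. The labels do not say whether pups of a group came from different litters. Each animal had 1 array labelled with 1 dye, and the 16 arrays lay on 4 slides, each with 2 HF and 2 HFT animals.

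Cells make cholesterol from acetyl-CoA through mevalonate, squalene and lanosterol. When membranes are short of sterol, SCAP escorts the transcription factor SREBP2 from the endoplasmic reticulum to the Golgi, where it is cut and freed to switch on nearly every gene of the route, and INSIG proteins hold SCAP back when sterol is plentiful. In the opposite state, oxysterols activate the LXRs, which switch on the pumps ABCA1 and ABCG1 and the ubiquitin ligase encoded by Mylip. White fat holds much of the body's free cholesterol in its lipid droplets and membranes, most of it taken up from lipoproteins.

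A pair of readouts of that switch were compared, one on each side. The first holds 20 genes known as SREBP2 targets, which are the synthesis genes other than Ggps1, with Insig1 and Stard4. The second holds 4 genes on the export side, Abca1, Abcg1, Mylip and Nr1h3, called efflux genes here.

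The promoters of the SREBP2 targets are shown first. SREBPs bind DNA weakly and are known to need partners, among them NF-Y, which reads the letters CCAAT. Promoter sequences from RefSeq (build GRCr8) were found for 27 of the 32 genes and for 16 of the 20 targets, and the 250 bases before each start were searched on both strands. The letters CCAAT or their complement ATTGG lay in 13 of those 16 target promoters (81.2%), against 35.8% of the 9465 promoters of genes tested on the array. At least 2 copies lay in 8 of the 16 (50%), against 12.2% of the tested genes. Among the 3 efflux genes with a promoter, Mylip had 2 copies, and Abca1 and Nr1h3 had none. Among the targets, Mvk and Nsdhl each had 5 copies, and Acat2, Cyp51 and Dhcr7 had none. Across the 16 animals, Pearson r with the mean of the other targets was 0.759 for Mvk and 0.934 for Nsdhl. It was 0.907 for Acat2, 0.958 for Cyp51 and 0.325 for Dhcr7. Whether the number of copies goes with that r was not tested. A sterol element written as TCACNCCAC was in none of the 27, where 0.972% of tested genes had it, and the E-box CACGTG was in 2 of the 16 target promoters (12.5%, against 7.93%). These are matches of letters, not measured binding. No promoter entry was found for Pmvk, Fdft1, Sqle, Stard4 and Abcg1.

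Below are the 200 bases before the start of 3 targets with several copies, and of Abca1 with none, 5′ to 3′ on the gene's own strand. Capitals mark CCAAT or ATTGG. Msmo1 lies at chr16:29746913-29747112 on the plus strand, Hsd17b7 at chr13:84722755-84722954 on the minus strand, Nsdhl at chrX:155817160-155817359 on the plus strand and Abca1 at chr5:72596474-72596673 on the minus strand.
Msmo1: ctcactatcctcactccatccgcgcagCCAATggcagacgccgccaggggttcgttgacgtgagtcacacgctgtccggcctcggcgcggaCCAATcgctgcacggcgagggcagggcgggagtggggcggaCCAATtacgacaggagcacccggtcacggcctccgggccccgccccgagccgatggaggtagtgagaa
Hsd17b7: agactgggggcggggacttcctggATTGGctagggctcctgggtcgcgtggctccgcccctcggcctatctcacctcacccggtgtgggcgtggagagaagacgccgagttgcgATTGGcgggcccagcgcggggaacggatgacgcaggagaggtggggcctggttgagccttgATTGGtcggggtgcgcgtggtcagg
Nsdhl: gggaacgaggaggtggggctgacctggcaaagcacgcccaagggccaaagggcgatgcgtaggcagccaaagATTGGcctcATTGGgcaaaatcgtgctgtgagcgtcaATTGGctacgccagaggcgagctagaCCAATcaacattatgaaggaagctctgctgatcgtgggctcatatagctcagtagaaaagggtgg
Abca1: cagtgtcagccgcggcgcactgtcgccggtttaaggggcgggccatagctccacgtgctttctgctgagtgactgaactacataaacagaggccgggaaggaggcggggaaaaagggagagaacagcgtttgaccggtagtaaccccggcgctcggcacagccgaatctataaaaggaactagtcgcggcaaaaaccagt

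In this window Msmo1 carried 3 copies, all read as CCAAT, and Hsd17b7 carried 3, all read as ATTGG. Nsdhl carried 4, of which 3 read ATTGG and 1 read CCAAT. The Abca1 window held none of these letters, and it held the E-box, beginning at base −149 from the start.

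Before the gene values, the tissue on each array was checked. Of 14 adipocyte markers 12 were measured, and all 12 were well above background on all 16 arrays. RNA of other tissues varied between animals. Lcn5, a lipocalin of the epididymal duct that lies against this pad, read 4.12, 3.42 and 4.12 in HF 8, HFT 23 and HFT 28, and −6.23 to −2.71 in the other 13 animals (log2 signal relative to the array's 75th percentile, the scale of every level below). Those 3 arrays are called Lcn5-high. The epididymal list as a whole had 10 of 16 genes measured, 3 of them not well above background on any array, and its median passed 3 log2 units above the median array in no animal. Urothelial markers, which belong to the bladder lining, stood 8.04 to 9.57 log2 units above the median array in HFT 22, HFT 24 and HF 35. Hepatocyte markers stood 3.04 to 4.53 above it in HF 10, HFT 24 and HFT 36, and smooth muscle markers 3.45 above it in HF 9. Where leaving out one of these arrays moved a difference of 0.10 or more by over 1.5 times, the value without it follows, after the gene or at the end of the gene accounts. A set of 10 animals (6 HF and 4 HFT) that were neither Lcn5-high nor urothelial-high was formed after the data had been seen, and because these are whole fat pads, fewer cells of a type and less RNA per cell cannot be told apart.

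HFT was compared with HF by limma over all 21808 probes kept, with Benjamini-Hochberg adjustment. No probe passed an adjusted p of 0.05 (0% called), and adjusted p-values were 0.999994 or more. Without adjustment 515 probes (2.36%) had p under 0.05, and none of the 32 genes was among them. With the slide as a block 736 probes (3.37%) and again none of the 32 genes met that mark. The 2 groups overlapped for every one of the 32 genes, as they did for all 21808 probes (0% without overlap). So the differences below are given as sizes, and none of them is a called change.

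As a group the targets and the efflux genes leaned opposite ways by small amounts. The mean difference, HFT minus HF, lay above 0 in 17 of the 20 targets, with a median of 0.09 log2 units, where 43.8% of all probes lay above 0 with a median of −0.02. It lay above 0 in 1 of the 4 efflux genes, with a median of −0.14. A typical standard error was 0.13, the median over all probes, so both medians are of the size of 1 gene's error. By slide the mean over the targets differed by −0.01, 0.30, 0.04 and 0.11, and that over the efflux genes by 0.29, −0.18, −0.39 and −0.22. On the efflux side the first slide had the opposite sign to the other 3. Its efflux means were 0.50 in HFT 22 and 0.24 in HFT 23, against 0.10 in HF 8 and 0.07 in HF 9.

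Single animals moved these medians by more than 1.5 times. Without HF 8 the target median was 0.02 with 12 of 20 above 0, and without HFT 28 it was 0.16 with 20 of 20. It was 0.16 also without HFT 22 and 0.14 without HFT 23, and 0.05 without HFT 36. Without the 3 hepatocyte-high animals it was 0.02 with 14 of 20. The efflux median stayed between −0.19 and −0.09 when any 1 animal was left out.

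**Figure D1:**
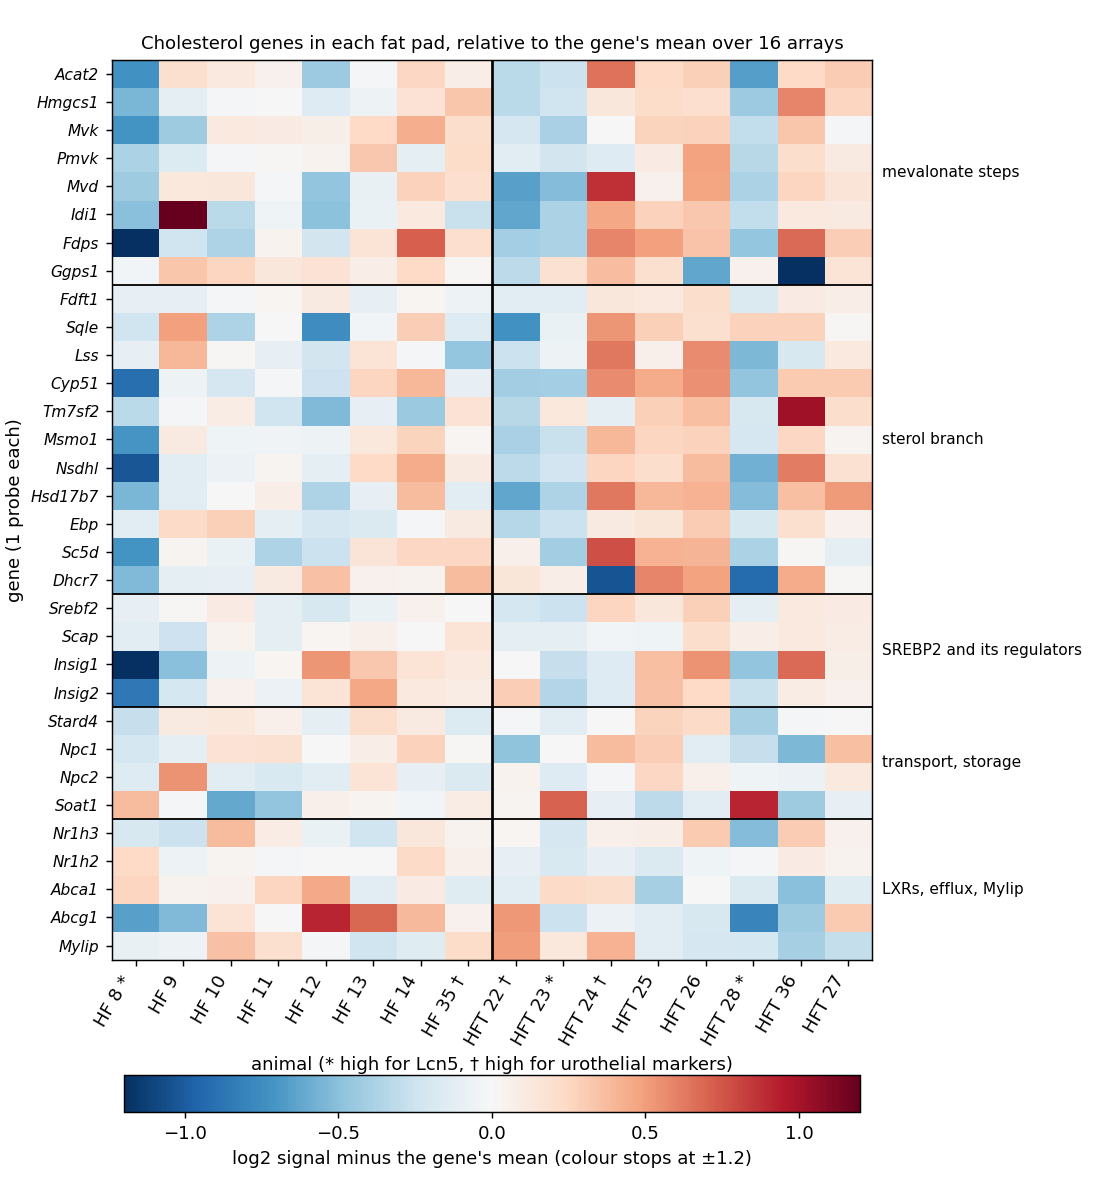
Each row is 1 of the 32 genes and each column 1 animal, HF on the left and HFT on the right. Colour gives the log2 signal minus that gene's mean over the 16 arrays, from blue (below) to red (above). Stars mark Lcn5-high and daggers urothelial-high animals. The 3 starred columns, HF 8, HFT 23 and HFT 28, are blue over most of the synthesis genes and red for Soat1.

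The mevalonate steps open with the enzymes that join acetyl units. Acat2, the cytosolic thiolase that makes acetoacetyl-CoA, read 1.65, 2.44 and 2.63 in HF (lowest, median and highest animal) and 1.72, 2.61 and 3.03 in HFT. Its ranges overlapped almost wholly, with HF 8 and HFT 28 lowest and HFT 24 highest. The difference was 0.12 ± 0.19 (SE, limma), a fold of 1.09.

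Hmgcs1, the synthase that makes HMG-CoA, read 3.62, 4.13 and 4.50 in HF and 3.73, 4.34 and 4.76 in HFT. HF 8 and HFT 28 were again at the bottom, HFT 36 stood at the top, and 5 of 8 HFT animals exceeded the HF mean. The difference was 0.10 ± 0.15. In the 10 animals low for Lcn5 and urothelial markers it was 0.35 ± 0.10 (unadjusted p 0.00627, limma, adjusted p 0.886). There all 4 HFT animals (4.37 to 4.76) lay above all 6 HF animals (4.01 to 4.35), which 1.03% of all probes did in either direction. The 10 leave out HFT 28, HFT 22 and HFT 23, the lowest HFT animals for Hmgcs1, and HF 8, the lowest of HF.

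The kinases Mvk and Pmvk phosphorylate mevalonate, and Mvd decarboxylates the product to an isoprenoid unit. Mvk read −2.01, −1.18 and −0.85 in HF and −1.68, −1.30 and −0.95 in HFT, a difference of −0.01 ± 0.16. Pmvk read 0.85, 1.23 and 1.55 in HF and 0.89, 1.21 and 1.71 in HFT, a difference of 0.02 ± 0.12. Mvd spread more among HFT animals (−0.11 to 1.41) than among HF animals (0.07 to 0.82), and its difference was 0.07 ± 0.20. The urothelial-high pair HFT 22 and HFT 24 were the lowest and the highest animals for Mvd.

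Idi1, the isomerase that interconverts both isoprenoid units, was set by 1 animal. HF 9 read 2.49 and the other 7 HF animals 0.40 to 1.02, with HFT animals at 0.28 to 1.37. HF 9 was also the animal high for smooth muscle markers, whose part in its Idi1 level was not tested. The group difference was 0.00 ± 0.26 with HF 9 and 0.23 without it.

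Fdps joins isoprenoid units to farnesyl diphosphate, and it had the widest span of the synthesis genes apart from Idi1. It read 0.94, 2.27 and 3.08 in HF and 1.90, 2.68 and 3.05 in HFT. HF 8 stood more than 1 log2 unit below every other HF animal. The difference was 0.28 ± 0.26, and a second Fdps probe, which tracked the first with r of 0.945, gave 0.22 ± 0.23.

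Ggps1 extends farnesyl diphosphate toward protein prenylation and so leaves the sterol route. It read −2.59, −2.40 and −2.22 in HF and −3.78, −2.44 and −2.18 in HFT. HFT 36 and HFT 26 lay well below all others, HFT 22 lay just below the HF range, and the remaining 5 HFT animals fell within or just above it. Its difference of −0.30 ± 0.19 was the lowest of the 32 over all 16 animals. Without HFT 36 it was −0.14, where Abcg1 (−0.22) and Abca1 (−0.17) lay lower, and without the hepatocyte-high animals it was −0.19.

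In the sterol branch the mean difference was above 0 in 10 of 11 genes, with a median of 0.13. Fdft1, the squalene synthase that commits carbon to sterols, was among the steadiest genes and read 1.53, 1.59 and 1.74 in HF and 1.46, 1.72 and 1.84 in HFT, a difference of 0.05 ± 0.07. Sqle, which oxidises squalene, read −0.33, 0.32 and 0.91 in HF and −0.32, 0.65 and 0.94 in HFT, a difference of 0.19 ± 0.18. For Sqle 7 of 8 HFT animals exceeded the HF mean, and the exception was the urothelial-high HFT 22. Lss, which closes the ring to lanosterol, ranged from −0.66 to 0.21 in HF and from −0.74 to 0.43 in HFT, a difference of 0.08 ± 0.16.

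The enzymes that strip methyl groups from lanosterol come next. Cyp51 read −0.43, 0.39 and 0.87 in HF and −0.002 (HFT 28), 0.79 and 1.04 in HFT. Its difference was 0.22 ± 0.20, and it was above 0 on all 4 slides. Msmo1, a methyl oxidase, read 1.76, 2.46 and 2.73 in HF and 2.07, 2.60 and 2.86 in HFT, a difference of 0.08 ± 0.14. HF 8 alone set the lower end of HF, since the other 7 read 2.40 to 2.73.

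Nsdhl, a dehydrogenase of the same demethylation, had the same low animal. It read −1.24, −0.23 and 0.24 in HF and −0.79, −0.01 and 0.41 in HFT, a difference of 0.13 ± 0.20. The 7 other HF animals read −0.34 to 0.24. Hsd17b7, the partner reductase, read −2.21, −1.77 and −1.28 in HF and −2.28, −1.28 and −1.02 in HFT. Here HFT split into 5 animals at −1.30 to −1.02 and 3 at −2.28 to −2.03, and those 3 were HFT 22, HFT 23 and HFT 28. Its difference was 0.20 ± 0.20 over 16 animals and 0.44 ± 0.13 over the 10 (unadjusted p 0.00595, limma, adjusted p 0.886). The 10 leave out those 3 low HFT animals, as well as HFT 24, the highest, and HF 8, the lowest of HF. So the larger difference is in part built into the choice of animals, and its p is no separate support.

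Tm7sf2, a sterol C14 reductase that shares its reaction with the lamin B receptor, showed the largest difference of the 32 over all 16 animals. It read −1.60, −1.24 and −0.90 in HF and −1.40, −0.90 and −0.05 in HFT. HFT 36 stood well above the rest, and 6 of 8 HFT animals exceeded the HF mean. The difference was 0.34 ± 0.17 (unadjusted p 0.0555, limma, adjusted p 0.999994; 95% interval −0.01 to 0.70), and it was above 0 on all 4 slides. Without HFT 36 it was 0.22, without the hepatocyte-high animals 0.29 and without the urothelial-high animals 0.53. In the 10 animals it was 0.68 ± 0.18 (unadjusted p 0.00349, limma, adjusted p 0.886). The groups did not overlap there, as was so for 1.03% of all probes. The 10 leave out HFT 22, HFT 28, HFT 24 and HFT 23, the lowest HFT animals for Tm7sf2, and HF 35, the highest of HF. So that separation is in part built into the choice of animals.

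The last sterol steps differed less. Ebp, the sterol isomerase, read 2.29, 2.43 and 2.78 in HF and 2.15, 2.57 and 2.79 in HFT, a difference of 0.00 ± 0.11. Sc5d, the desaturase, read −2.40, −1.70 and −1.43 in HF and −2.10, −1.64 and −0.91 in HFT, a difference of 0.19 ± 0.18, with the urothelial-high HFT 24 at the top. Dhcr7, which reduces the last double bond, broke the pattern in that same animal.

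Dhcr7 read 1.46, 2.03 and 2.36 in HF and 0.95, 2.10 and 2.57 in HFT. The 2 lowest animals were HFT 24 at 0.95 and HFT 28 at 1.07, although HFT 24 was the highest of 16 for Acat2, Sqle, Lss, Cyp51, Msmo1, Hsd17b7 and Sc5d. The Dhcr7 difference was −0.05 ± 0.23 over all animals and 0.32 ± 0.13 over the 10, which leave out both HFT 24 and HFT 28.

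**Figure D2:**
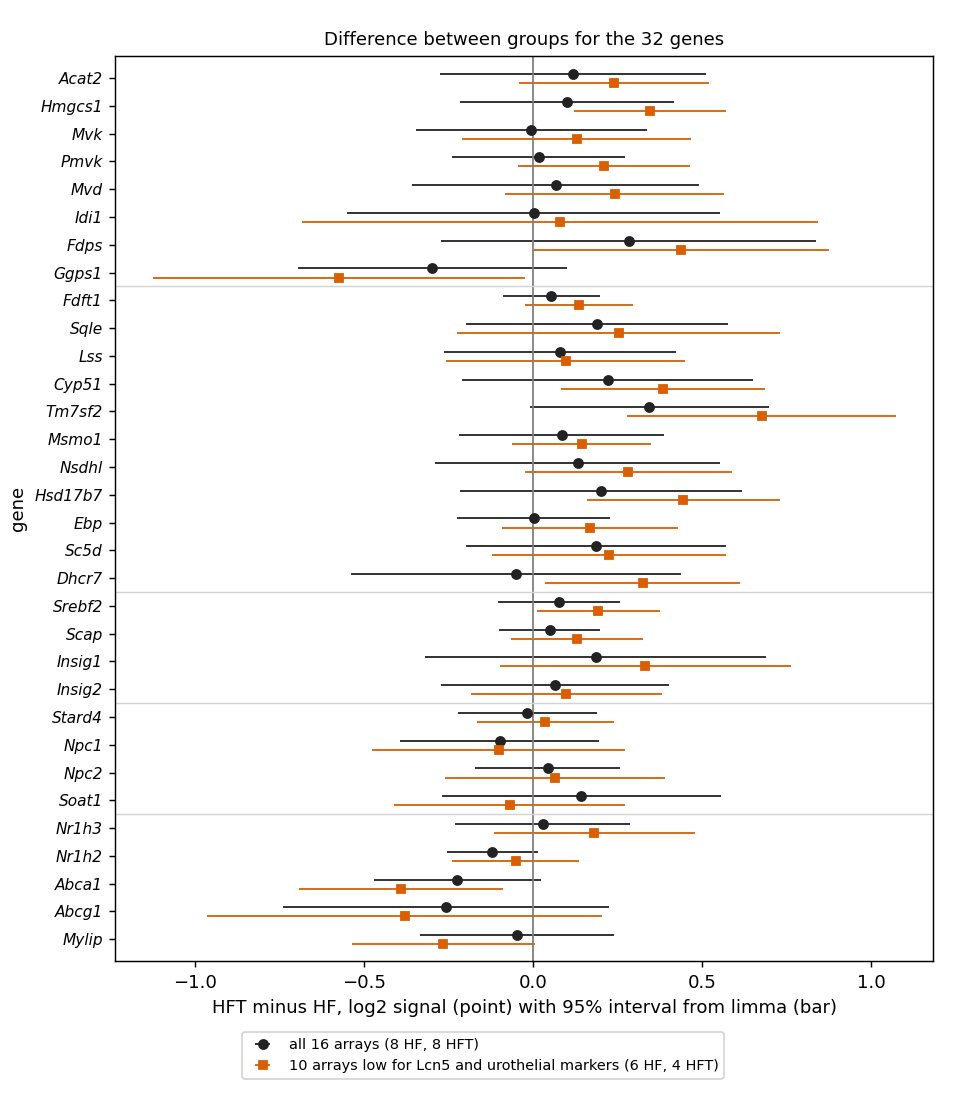
Points give the HFT minus HF difference in log2 signal for each of the 32 genes and bars its 95% interval from limma, in black for all 16 arrays and in orange for the 10 arrays low for Lcn5 and urothelial markers. All 32 black intervals cross 0. The orange points of all 20 SREBP2 targets lie above 0, and those of Abca1, Abcg1 and Mylip below. The 10 arrays leave out HFT 22, HFT 23 and HFT 28, the HFT animals lowest for the target mean.

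For the sensing machinery the difference was above 0 in all 4 genes. Srebf2, which encodes SREBP2, read 0.95, 1.10 and 1.24 in HF and 0.88, 1.24 and 1.42 in HFT, a difference of 0.08 ± 0.09. Scap, its escort, read 0.36, 0.61 and 0.77 in HF and 0.49, 0.63 and 0.82 in HFT, a difference of 0.05 ± 0.07. Both genes varied little, with an SD over 16 animals of 0.16 and 0.12.

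Insig1, the INSIG whose own gene is an SREBP target, varied far more, with an SD of 0.50. It read 2.97, 4.38 and 4.84 in HF and 3.83, 4.34 and 4.99 in HFT. HF 8, HF 9 and HFT 28 were its 3 lowest animals, and the difference was 0.19 ± 0.24. Insig2, the INSIG that does not depend on SREBP2 in the same way, read −3.29, −2.36 and −1.97 in HF and −2.78, −2.36 and −2.07 in HFT. The difference was 0.06 ± 0.16, again with HF 8 lowest.

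Among the transport and storage genes, Stard4, a soluble carrier of sterol between membranes, read −0.49, −0.13 and −0.01 in HF and −0.62, −0.23 and 0.05 in HFT. The groups overlapped throughout, and the difference was −0.02 ± 0.10. A second Stard4 probe gave 0.03 ± 0.08. Npc1 and Npc2 hand cholesterol out of the lysosome. Npc1 read 0.44, 0.70 and 0.93 in HF and 0.12, 0.59 and 1.04 in HFT, a difference of −0.10 ± 0.14, and its second probe had the opposite sign (0.09 ± 0.10; r of 0.565 between the probes). Npc2 ranged from 1.39 to 2.11 in HF, with HF 9 on top, and from 1.42 to 1.82 in HFT, a difference of 0.04 ± 0.10.

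Soat1 esterifies cholesterol for storage in droplets, and its probe ran against the synthesis genes in the Lcn5-high animals. It read −6.60, −5.98 and −5.60 in HF and −6.41, −6.09 and −5.07 in HFT. The 3 highest animals of all 16 were HFT 28, HFT 23 and HF 8, which are the 3 Lcn5-high ones. The difference was 0.14 ± 0.19, and 0.08 with another background correction (normexp). In the 10 other animals it was −0.07 ± 0.15. The part of epididymal RNA in the Soat1 level was not tested.

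On the export side, the nuclear receptors differed little. Nr1h3, the LXR abundant in fat and macrophages, read 2.48, 2.71 and 3.11 in HF and 2.21, 2.78 and 3.05 in HFT, a difference of 0.03 ± 0.12. Nr1h2, the LXR found in most tissues, read 1.43, 1.51 and 1.73 in HF and 1.31, 1.42 and 1.59 in HFT. Only 1 of 8 HFT animals exceeded the HF mean of Nr1h2, and its difference was below 0 on all 4 slides, at −0.12 ± 0.06 (unadjusted p 0.0740, limma, adjusted p 0.999994). Over the 10 animals the Nr1h2 difference was −0.05 ± 0.08.

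Abca1 loads cholesterol onto lipid-poor apolipoprotein. It read −2.55, −2.33 and −1.95 in HF and −2.91, −2.54 and −2.18 in HFT. The 2 lowest animals were HFT 36 and HFT 25 and the highest was HF 12, and 2 of 8 HFT animals exceeded the HF mean. The difference was −0.22 ± 0.12 (unadjusted p 0.0725, limma, adjusted p 0.999994; 95% interval −0.47 to 0.02), a fold of 0.856, and it was below 0 on all 4 slides. In the 10 animals it was −0.39 ± 0.14 (unadjusted p 0.0162, limma, adjusted p 0.886). The 10 leave out HFT 23 and HFT 24, the highest HFT animals for Abca1, and HF 35, the lowest of HF.

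Abcg1 exports cholesterol to mature HDL, and its spread between animals was the widest of the export genes. It read 1.51, 2.26 and 3.07 in HF and 1.37, 1.998 and 2.67 in HFT, a difference of −0.26 ± 0.23. The 3 lowest were HFT 28, HF 8 and HF 9. By slide the difference ran from −1.30 to 0.72. Mylip marks lipoprotein receptors for breakdown. It read −1.66, −1.46 and −1.06 in HF and −1.81, −1.58 and −0.91 in HFT, a difference of −0.05 ± 0.14, and a second Mylip probe gave −0.21 ± 0.18. The top 2 animals for Mylip, HFT 22 and HFT 24, were both urothelial-high.

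Several differences were smaller without HF 8. Then the difference was 0.02 for Acat2, 0.03 for Hmgcs1, 0.10 for Fdps, 0.11 for Cyp51, −0.01 for Nsdhl, 0.10 for Sc5d and 0.01 for Insig1. Without HFT 28, the other low animal, it was 0.22 for Acat2, 0.17 for Hmgcs1, 0.22 for Nsdhl, 0.02 for Soat1 and −0.16 for Abcg1. Leaving out HFT 36 gave 0.02 for Hmgcs1, 0.05 for Nsdhl and 0.10 for Insig1, and leaving out HFT 24 gave 0.03 for Acat2, 0.09 for Sc5d and 0.13 for Hsd17b7. Without HFT 22 the difference was 0.31 for Sqle, 0.31 for Hsd17b7 and 0.15 for Hmgcs1, without HF 35 it was 0.15 for Hmgcs1, without HFT 23 it was 0.05 for Soat1, and without HF 10 it was 0.06 for Soat1. Without the 3 hepatocyte-high animals it was 0.02 for Acat2, 0.00 for Hmgcs1, 0.09 for Fdps, 0.05 for Sqle, 0.10 for Cyp51, 0.01 for Nsdhl, 0.09 for Hsd17b7 and 0.09 for Sc5d. Among arrays with no such mark, leaving out HF 12 gave 0.06 for Acat2, 0.10 for Sqle and −0.15 for Abcg1, HFT 26 gave 0.09 for Nsdhl and 0.12 for Insig1, HF 14 gave 0.20 for Nsdhl, and HF 11 gave 0.09 for Soat1. Without the 3 Lcn5-high animals the difference was 0.20 for Acat2, 0.16 for Hmgcs1, 0.32 for Hsd17b7 and −0.04 for Soat1. Without the 3 urothelial-high animals it was 0.20 for Hmgcs1.

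Restricting the comparison to the 10 animals widened the lean between both sides, without any probe passing adjustment. All 20 targets then had a mean difference above 0, with a median of 0.24, where 56% of all probes lay above 0 with a median of 0.02. An unadjusted p under 0.05 was reached by 9 of the 32 genes, against 5.53% of all probes. They were Hmgcs1, Fdps, Cyp51, Tm7sf2, Hsd17b7, Dhcr7 and Srebf2 with positive differences, and Ggps1 and Abca1 with negative ones. The smallest adjusted p among the 32 was 0.886. Among the efflux genes 1 of 4 lay above 0, with a median of −0.32. The 10 animals were picked by other tissues' RNA after the data had been seen, and that choice was not independent of the targets. Lcn5 had r of −0.705 with the target mean over 16 animals. The Lcn5-high animals left out had target means of 0.37 to 0.71, against 0.77 or more in the 10. The set leaves 4 HFT animals, and hepatocyte markers were still high in HF 10 and HFT 36.

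How far the genes moved together across animals was described next. The targets varied more than most probes, with a median SD over 16 animals of 0.38 log2 units against 0.26 over all probes, which was also the median of the efflux genes. Among the 190 pairs of targets the median Pearson r was 0.60, and 185 pairs had r above 0. The first principal component held 60.4% of their variance. Among the 10 animals the median r was 0.46 with 163 pairs above 0, and the component held 43.2%. With the group means taken out, the median r was 0.595 with 185 pairs above 0 over 16 animals. Over the 10 animals it was then 0.275 with 127 pairs above 0.

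Gene by gene, each target was set against the mean of the other targets over 16 animals. Cyp51 followed it most closely (r 0.958), then Msmo1 (0.943), Nsdhl (0.934), Acat2 (0.907) and Fdps (0.903). Hmgcs1 and Hsd17b7 stood at 0.887 and 0.886. An r above 0.8 was found for 8 of 20 targets, against 1.38% of all probes, and an r above 0.5 for 19 of 20, against 19.3%. The exception was Dhcr7 (0.325). In the 10 animals the counts were 3 of 20 (0.271% of all probes) and 12 of 20 (8.52%), with Cyp51 (0.898) and Msmo1 (0.900) still closest. Idi1 had r of 0.506 but a Spearman rho of 0.812, since HF 9 lay off its line.

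The sensing genes followed the targets in different degree. Srebf2 had r of 0.791 over 16 animals and 0.827 over the 10, although its own range was only 0.54 log2 units. Insig1 had r of 0.666 and 0.279, Insig2 of 0.602 and 0.277, and Scap of 0.391 and 0.405. So Srebf2 alone of these 4 kept a high r in the smaller set. These r values include the difference between groups. With the group means taken out, the r of Srebf2 was 0.781 over 16 animals, and it was not computed over the 10. Over the 10 animals Srebf2 and Hmgcs1 had r of 0.620, and 0.117 with the group means taken out.

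Genes outside the target list split. Ggps1 ran against the targets, with r of −0.222 over 16 animals and −0.629 over the 10, where HFT 36 and HFT 26, its lowest animals, are among the highest for target mean. Soat1 had r of −0.633 over 16 but −0.075 over the 10, since its high values sat in the Lcn5-high animals. Npc1 had 0.370 and −0.295, and Npc2 0.328 and 0.243.

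**Figure D3:**
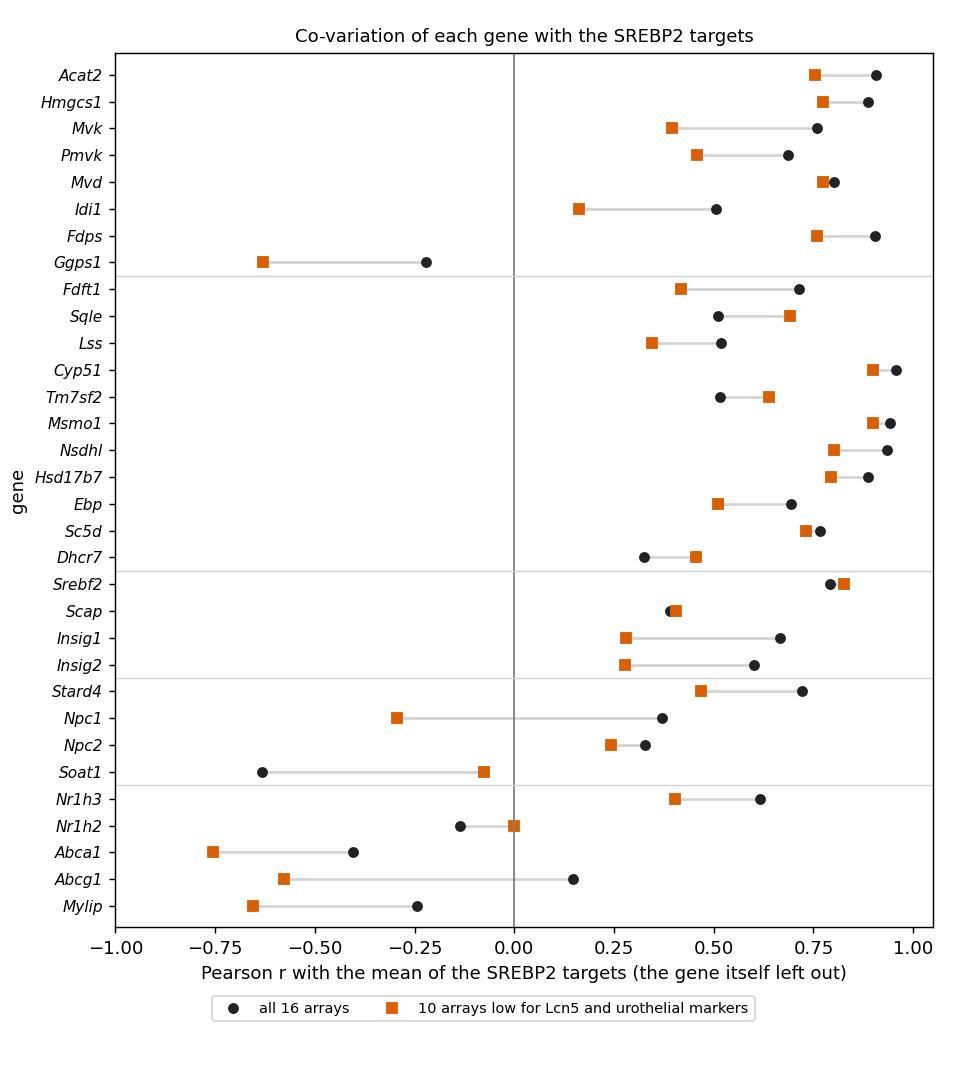
For each of the 32 genes the plot gives Pearson r across animals with the mean of the SREBP2 targets, the gene itself left out, in black for all 16 arrays and in orange for the 10 arrays low for Lcn5 and urothelial markers. Synthesis genes lie right of 0 apart from Ggps1. Abca1, Abcg1 and Mylip lie between −0.76 and −0.58 in orange.

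Of the efflux genes only Abcg1 changed sign with the animals that entered. Abca1 had r with the target mean of −0.405 over 16 animals and −0.756 over the 10, Mylip −0.243 and −0.656, and Abcg1 0.147 and −0.578. Nr1h3, counted on the export side here, had 0.616 and 0.403 and so moved with the synthesis genes in both sets. Nr1h2 had −0.136 and −0.001.

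The mean of the 20 targets and the mean of the 4 efflux genes had r of 0.062 (Spearman rho −0.094) over 16 animals. Over the 13 animals that were not Lcn5-high it was −0.665, and over the 10 it was −0.730 (rho −0.733). With the group means taken out it was 0.139 over 16 and −0.532 over the 10. Leaving out the 2 animals farthest from the median target mean, HF 8 and HFT 28, gave −0.545. HF 8 and HFT 28 had a target mean of 0.37 and 0.57, the lowest of 16, together with efflux means of 0.10 and −0.16, and leaving out either turned the sign (−0.08 and −0.19). With all 16 animals kept it was −0.57 after the epididymal and urothelial scores were taken out and −0.39 after the adipocyte score was. The r over all 16 animals was small, and its sign turned also when slide means alone were taken out (−0.038). The larger negative r values came with such animals left out or with marker scores taken out. Both means come from the same arrays and share their scaling, and no p is given for them.

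**Figure D4:**
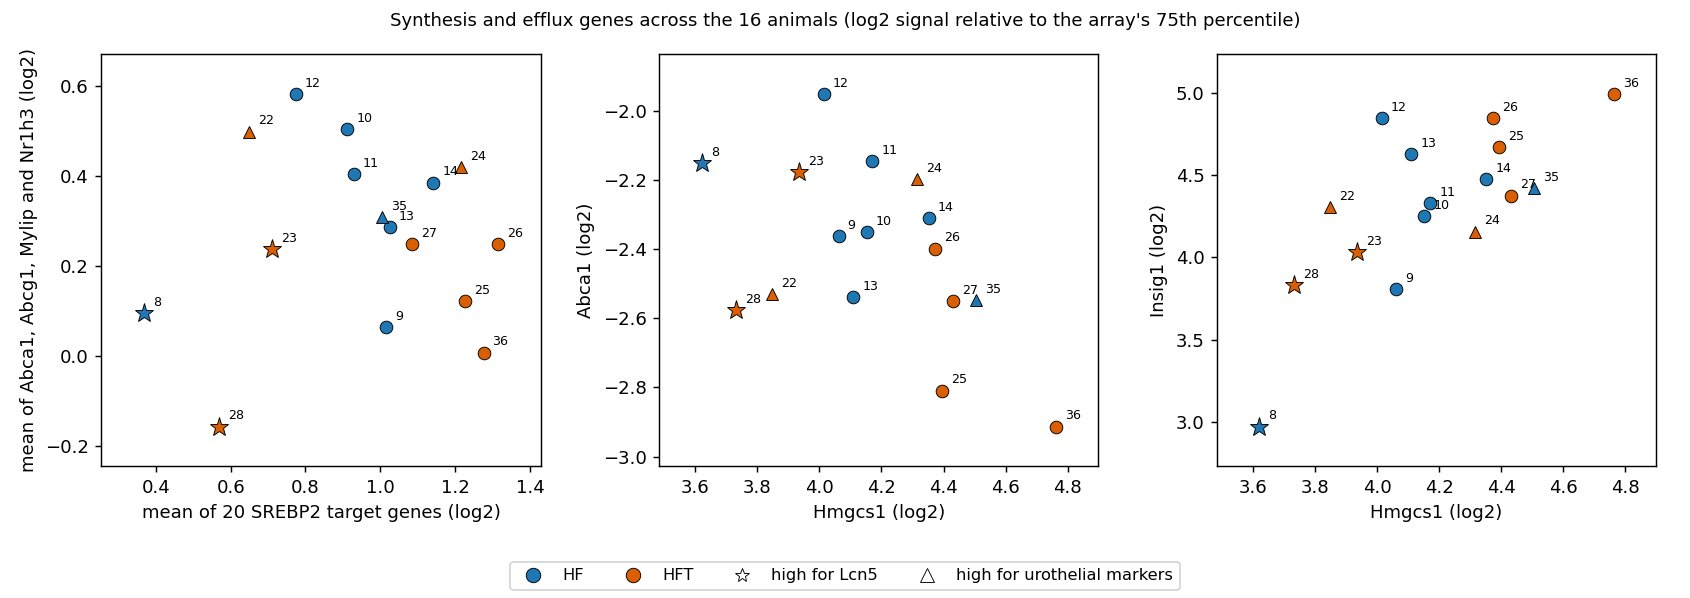
Each point is 1 animal, blue for HF and orange for HFT, with its number beside it. Stars are Lcn5-high and triangles urothelial-high animals. The left panel sets the mean of 4 efflux genes against the mean of 20 SREBP2 targets, the middle panel Abca1 against Hmgcs1 and the right panel Insig1 against Hmgcs1, all in log2 signal relative to the array's 75th percentile. The stars HF 8 and HFT 28 sit at the lower left of the left panel, away from the falling cloud of circles.

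Single gene pairs were tested over 16 animals, 9 pairs in all, with 2-sided permutation tests of 100000 resamples and Benjamini-Hochberg adjustment over the 9. Hmgcs1 and Insig1, both SREBP2 targets, had r of 0.722 (permutation p 0.00121, adjusted 0.0109; rho 0.665, permutation p 0.00680, adjusted 0.0306), which was 0.480 without HFT 36 and HF 8, the 2 animals farthest from the median of Hmgcs1. Hmgcs1 and Srebf2 had r of 0.674 (permutation p 0.00435, adjusted 0.0196; rho 0.694, permutation p 0.00375, adjusted 0.0306), and 0.723 without those 2. After taking out slide means the r values were 0.738 and 0.555. These 2 pairs were the only ones of the 9 to pass over 16 animals. Over the 10 animals Hmgcs1 and Insig1 had r of 0.502 (permutation p 0.143, adjusted 0.211), and 0.213 with the group means taken out.

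Hmgcs1 and Abca1, a gene from each side, had r of −0.498 (permutation p 0.0503, adjusted 0.151; rho −0.476, permutation p 0.0637, adjusted 0.143) over 16 animals. Without HFT 36 and HF 8 it was −0.198, so its size over 16 animals rests largely on those 2. In the 10 animals, which leave out HF 8, it was −0.769 (permutation p 0.00901, adjusted 0.0811). There it was −0.432 without HFT 36 and HF 12, and −0.486 with the group means taken out. Abca1 and Mylip had r of 0.392 (permutation p 0.134, adjusted 0.241) and rho of 0.518 (permutation p 0.0431, adjusted 0.129). Over the 13 animals that were not urothelial-high its rho was 0.747 (permutation p 0.00419, adjusted 0.0189), which passed, and its r 0.610 (permutation p 0.0260, adjusted 0.0703), which did not. Hmgcs1 with Insig1 (r 0.790, permutation p 0.00128, adjusted 0.0115) and with Srebf2 (r 0.685, permutation p 0.0101, adjusted 0.0453) also passed there. Abca1 and Abcg1, both LXR targets, had r of 0.212 (permutation p 0.429, adjusted 0.483), and the other 4 pairs had r between −0.250 and 0.396 with adjusted p of 0.241 to 0.606. No pair passed adjustment in the 10 animals.

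Marker lists moved with both sides, and their part in the results was not tested. Over 16 animals the target mean had r of 0.454 with the adipocyte markers, −0.705 with Lcn5, −0.557 with the epididymal list, 0.334 with hepatocyte markers, 0.181 with macrophage markers and 0.064 with urothelial markers. Over the 10 animals these were −0.445, −0.153, 0.191, 0.203, 0.323 and −0.195, so the adipocyte, epididymal and urothelial values changed sign. The target mean was 0.37 to 0.71 in the 3 Lcn5-high animals, 0.65 to 1.22 in the 3 urothelial-high ones and 0.77 to 1.31 in the other 10. The efflux mean had r over 16 animals of 0.691 with the adipocyte markers, −0.714 with the epididymal list, −0.515 with Lcn5 and 0.371 with urothelial markers. Nr1h3 and Abcg1 had r of 0.760 and 0.604 with the adipocyte markers and −0.697 and −0.696 with the epididymal list, where Abca1 had 0.126 and −0.062. Adipocyte marker scores ran from −0.35 to 0.42 in HF and from −0.76 to 0.16 in HFT. All 20 macrophage markers were measured and 19 were well above background on every array, and their score ran from −0.52 to 0.31 in HF and from −0.13 to 0.45 in HFT. The efflux mean had r of −0.219 with that score.

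The neighbouring pathways were read the same way. Of 28 other cholesterol genes (uptake, lysosomal, oxysterol and carrier genes) 25 were tested, with 11 above 0, 14 below and a median difference of −0.02. Ch25h, which makes the LXR ligand 25-hydroxycholesterol, was the only one with an unadjusted p under 0.05. It read −3.72, −2.67 and −1.04 in HF and −3.99, −3.30 and −2.74 in HFT, a difference of −0.70 ± 0.29 (unadjusted p 0.0292, limma, not passing adjustment). Of 15 fatty acid synthesis genes 14 were tested, 6 above 0 and 8 below, with a median of −0.05 and none at an unadjusted p under 0.05. Their mean over the 14 genes nevertheless followed the target mean across animals, with r of 0.737 over 16 and 0.297 over the 10.

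Of the genes on both lists, Thrsp, a nuclear protein tied to fat synthesis, was closest to the targets (r 0.876 over 16 animals, 0.797 over the 10). Aacs, which activates ketone bodies for lipid synthesis, had 0.831 and 0.431. Tmem97, an endoplasmic reticulum sterol-binding protein, had 0.791 and 0.390, and Acss2, which activates acetate, had 0.740 and 0.092. At the other end stood Cyp27a1, which oxidises cholesterol to 27-hydroxycholesterol (−0.780 and −0.357), and Stard3, a late endosomal sterol carrier (−0.667 and −0.211). Thrsp was the only one of the 6 above 0.5 in the smaller set.

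Outside these lists, the named genes most like the target mean over the 13 animals that were not urothelial-high were Nln (r 0.960), Parp1 (0.950), Ccdc167 (0.948), F8a1 (0.948), Oaz1 (0.942), Mrps12 (0.938), Ndufa12 (0.933) and Tbcc (0.928). In those 13, which still held the Lcn5-high animals, 3.75% of all probes had r above 0.8. Over the 10 animals the same 8 had r of 0.748 to 0.876, and 3 of them were among the 8 closest there.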

How the data were processed

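Agilent 1-colour arrays (Cy3) of 16 fat pads were read from the deposited scanner output. The processed intensity of a spot had been background-subtracted and detrended by Agilent Feature Extraction 10.7.3.1, per the file headers and the submitters' processing notes. The median spot and background intensities and the spot marks come from the same deposited files. The authors also deposited a log2 value table; how it was normalized is not given in the labels or headers. Its column medians lay at 7.33 to 7.36, each column matched its own array best, and it served as an alternative only. No column was left unmapped.

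From the processed intensities, log2 was taken and each array's 75th percentile over spots that are not controls was subtracted. That percentile lay between 753 and 1366, 68.3% to 73.4% of probes were well above background, and no spot was saturated. Of 62976 spots 4259 were controls. Marked outlier spots were left out and the spots of a probe averaged, which gave 30367 probes. Of these 18005 matched a RefSeq gene symbol (GRCr8), for 15168 genes. A probe was kept if 4 or more of a group's 8 arrays read it well above background (21808, for 11592 named genes). HFT was compared with HF with limma 3.58.1 in R 4.3.3 (lmFit and eBayes, no covariate), adjusted over all kept probes at 0.05. The fit was tested on simulated data. The p-values measure the spread between these animals, and their number limits the precision. An array was high for a marker list when the list's median, or for the added rule Lcn5 alone, lay over 3 log2 units above the median array.

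Correlations used scipy 1.17.1. All 32 genes are named. Of the other 2 lists the text names genes at an unadjusted p under 0.05, the 4 of highest and 2 of lowest r with the target mean, and of all other genes the 8 of highest r. The array design carries an older build, so no probe coordinates are given. The 32 genes, the lists, the pairs and the tests were chosen with earlier results of these data known. Position on a slide and group cannot be told apart, since HF took the first 2 positions of every slide.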

Additional observations from a re-analysis of the deposited data

Results flagged for a closer look

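In 3 of 64 gene and group combinations, 1 animal stood further from the other 7 than Dixon's 95% limit for 8 values allows. Chance alone flags about 1 in 20, or 3.2 of 64.

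Idi1 read 2.49 in HF 9 and 0.40 to 1.02 in the other HF animals. HF 9 was also the only array high for smooth muscle markers and had the highest Npc2 level. Msmo1 read 1.76 in HF 8 against 2.40 to 2.73 in the other HF animals. Nsdhl read −1.24 in HF 8 against −0.34 to 0.24. HF 8 is Lcn5-high and had the lowest value of all 16 animals for Acat2, Hmgcs1, Mvk, Pmvk, Fdps, Cyp51, Msmo1, Nsdhl, Sc5d, Insig1 and Insig2.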

How the results depend on the processing

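Across 30 alternatives 18 of the 32 genes kept the sign of their difference, and 78 of 960 gene values changed sign. Over the alternatives 12 to 20 of the 20 SREBP2 targets lay above 0. The target median ranged from 0.02 to 0.24 and the efflux median from −0.32 to −0.07. No member passed adjustment in any alternative. The correlation of the target mean with the efflux mean, 0.06, changed sign to −0.038 with slide means removed, to −0.57 with the epididymal and urothelial scores as covariates, to −0.39 with the adipocyte score as covariate (added), to −0.66 without Lcn5-high arrays and to −0.73 without Lcn5-high or urothelial-high arrays (both added). The cause was not tested. When 1 animal at a time was left out it ran from −0.19 (without HFT 28) to 0.19 (without HFT 36), and was −0.08 without HF 8. The target median then ran from 0.02 to 0.16. The median pairwise r of the targets, 0.60, was 0.51 with quantile normalization, 0.52 with normexp and 0.52 with the deposited value table. It was 0.43 without Lcn5-high arrays and 0.46 without Lcn5-high or urothelial-high arrays. Without Lcn5-high arrays 1 probe passed adjustment, where none did before. It was that of Acot5, which is no member and was named after its values were seen (−4.38 ± 0.49, limma adjusted p 0.0131; 7 HF and 6 HFT). The added alternatives were chosen after seeing the data. The planned removal of arrays high for the epididymal list was not run, because no array met its rule. No paired analysis was possible because the groups share no replicate numbers.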
